A study of Salmo salar with 54 samples.

Results

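Vitamin D, thyroid hormone and retinoic acid reach the liver cell as small fat-soluble ligands, and 1 gene of each signal was followed here in Atlantic salmon (Salmo salar) hepatocytes exposed to arsenic. The genes were cyp24a1 (GeneID:106583685), which encodes the enzyme that inactivates vitamin D, dio3b (GeneID:106608133), which encodes a deiodinase that inactivates thyroid hormone, and raraa (GeneID:100136372), which encodes a retinoic acid receptor of the alpha type. They are 3 of the 18901 genes in the deposited table. They were chosen by name with results of these same libraries known. The levels of cyp24a1 and dio3b at 3 µM arsenite were among those results, and which values led to raraa is not given. Their levels at 1 and 3 µM arsenite and at 250 µM arsenosugar are therefore a description, with an interval but no test.

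The cells were primary hepatocytes from 6 male fish, freed with collagenase and grown on laminin-coated porous polystyrene scaffolds in L-15 medium with fetal bovine serum, controls included. Cells of every fish were exposed for 48 h to arsenite (AsIII, inorganic trivalent arsenic) at 0.1, 1 or 3 µM, or to 5, 10, 50 or 250 µM of arsenosugar glycerol (AsSug), in which arsenic is bound to a sugar. Each compound had its own plates and its own control, which gave 9 groups of 6 libraries, 1 per fish. RNA was sequenced in bulk, and the values below are normalised reads, that is, reads per gene after the authors' division by a size factor of each library.

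Active vitamin D, thyroid hormone and retinoic acid each bind a nuclear receptor that pairs with a retinoid X receptor on DNA and recruits coactivators or corepressors. The amount of active ligand in a cell is set by enzymes that make it and enzymes that clear it. CYP24A1 hydroxylates active vitamin D and its precursor and so starts their breakdown, and in mammals its gene is a well-known target of the vitamin D receptor. Type 3 deiodinase, a selenium-containing enzyme, removes an iodine from the inner ring of thyroid hormone and leaves inactive products. Retinoic acid receptors regulate genes of differentiation and metabolism, and liver is the main store of vitamin A.

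Libraries held 8.79 to 24.0 M (mega) assigned reads, or 0.898 to 5.38 M at 250 µM AsSug. Genes with 0 reads numbered 207 to 921 per library at that concentration and 39 or fewer elsewhere. The 6 libraries at 250 µM carry library names of a series of their own, apart from their control, and the labels set their RNA integrity apart, so exposure, library series and RNA integrity cannot be told apart for that group. The library of fish 1 at 0.1 µM AsIII stood apart as well: 21.6% of genes lay over 2-fold from the median of its group, against 0.481% to 4.80% in the other 47 libraries outside 250 µM. For the 3 genes, changes against the AsIII control are given with and without it. For the listed genes further below, calls at 1 or 3 µM against control that changed without it are named. Of 19 hepatocyte marker genes sought, 11 were found, including albumin, apolipoprotein, fibrinogen and transferrin genes. Their summed level was 784463 to 998108 normalised reads in the AsIII controls, 540171 to 750284 at 1 µM and 577731 to 706574 at 3 µM, and it went from 770660 to 973078 in the AsSug controls to 236098 to 510357 at 250 µM. The 4 stellate cell and fibroblast markers found of 14 (timp2, timp2a, acta2 and fn1a) summed to 319 to 678 in the AsIII controls, 1005 to 1499 at 1 µM and 1647 to 2148 at 3 µM. Of all genes, 29.8% were called higher and 27.3% lower at 1 µM AsIII (adjusted p below 0.05), and 36% and 35.1% at 3 µM. At 250 µM AsSug it was 26.7% and 36.5%. The calls of the few markers of each type are given beside these shares, and nothing more is read from them. Of the 4 markers, 2 were called higher at 1 µM, and 2 higher and 1 lower at 3 µM (median log2 change 0.35). Their sum went from 310 to 723 in the AsSug controls to 157 to 250 at 250 µM. The 2 of 9 endothelial markers found summed to 147 to 230.1 in the AsIII controls, 247 to 327 at 1 µM and 409 to 547 at 3 µM, and to 181 to 221 in the AsSug controls and 236 to 307 at 250 µM. At 3 µM AsIII, and again at 250 µM AsSug, 1 of the 2 was called higher and 1 lower. Macrophage and granulocyte markers (3 of 8 found) summed to 2532 to 3251, 1787 to 2386 and 1469 to 1935 in the AsIII controls and at 1 and 3 µM, and went from 2537 to 3083 in the AsSug controls to 651 to 1607 at 250 µM. The sum did not stand for each gene under arsenite: 0 were called higher and 1 lower at 1 µM (median log2 change 0.16). At 3 µM 2 were called higher and 1 lower (median 0.60), and at 250 µM AsSug 0 and 2 (median -1.51). The 1 erythrocyte marker found of 6, rhag, overlapped its control range under arsenite, though it was called lower at 1 µM (log2 change -0.42). It went from 252 to 365 in the AsSug controls to 509 to 729 at 250 µM. Cholangiocyte markers (2 of 7 found) summed to 2847 to 3527 in the AsIII controls, 2280.5 to 2731 at 1 µM and 3039 to 3373 at 3 µM, and their sum overlapped its control at 250 µM AsSug. Of these 2, 0 were called higher and 1 lower at 1 µM, 1 and 0 at 3 µM, and 1 and 1 at 250 µM AsSug. None of the 8 lymphocyte markers was in the table. In bulk RNA, fewer cells of a type and less RNA per cell cannot be told apart, and the part of these shifts in the results below was not tested.

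cyp24a1, the vitamin D inactivating enzyme, was lower at each step of arsenite above 0.1 µM. In the AsIII controls its lowest, median and highest levels were 11131, 12940.4 and 14737 normalised reads. At 0.1 µM they were 9644, 13407 and 17341, which spans the whole control range. At 1 µM they were 6771, 8173 and 9225, and the highest exposed fish was below the lowest control. At 3 µM they were 1111, 1386 and 1687, again without overlap, either with the control or with 1 µM.

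The group mean of cyp24a1 stood at 63.3% of control at 1 µM and at 10.8% at 3 µM. Fish by fish, the level at 3 µM was 8.78% of the control of the same fish in fish 1, 11.4% in fish 2, 11.8% in fish 3, 11.3% in fish 4, 11.9% in fish 5 and 9.98% in fish 6. The 6 fish therefore lay within a narrow band at the highest concentration. On the scale of log2(value + 1), the fitted change was -0.66 ± 0.09 (standard error of the limma fit, with fish as a term; 95% interval -0.84 to -0.48) at 1 µM and -3.21 ± 0.09 (-3.39 to -3.03) at 3 µM. The step from 1 to 3 µM was -2.55 ± 0.09. Of 18899 genes fitted, 13 had a lower change than cyp24a1 at 3 µM and 2262 had a lower one at 1 µM. At 0.1 µM the change was 0.01 ± 0.09 (95% interval -0.17 to 0.19, limma adjusted p = 0.975 over all genes). Without the library of fish 1 at 0.1 µM it was -0.07 ± 0.07 (adjusted p = 0.850), and the changes at 1 and 3 µM were -0.66 and -3.21 with a standard error of 0.06.

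**Figure D1:**
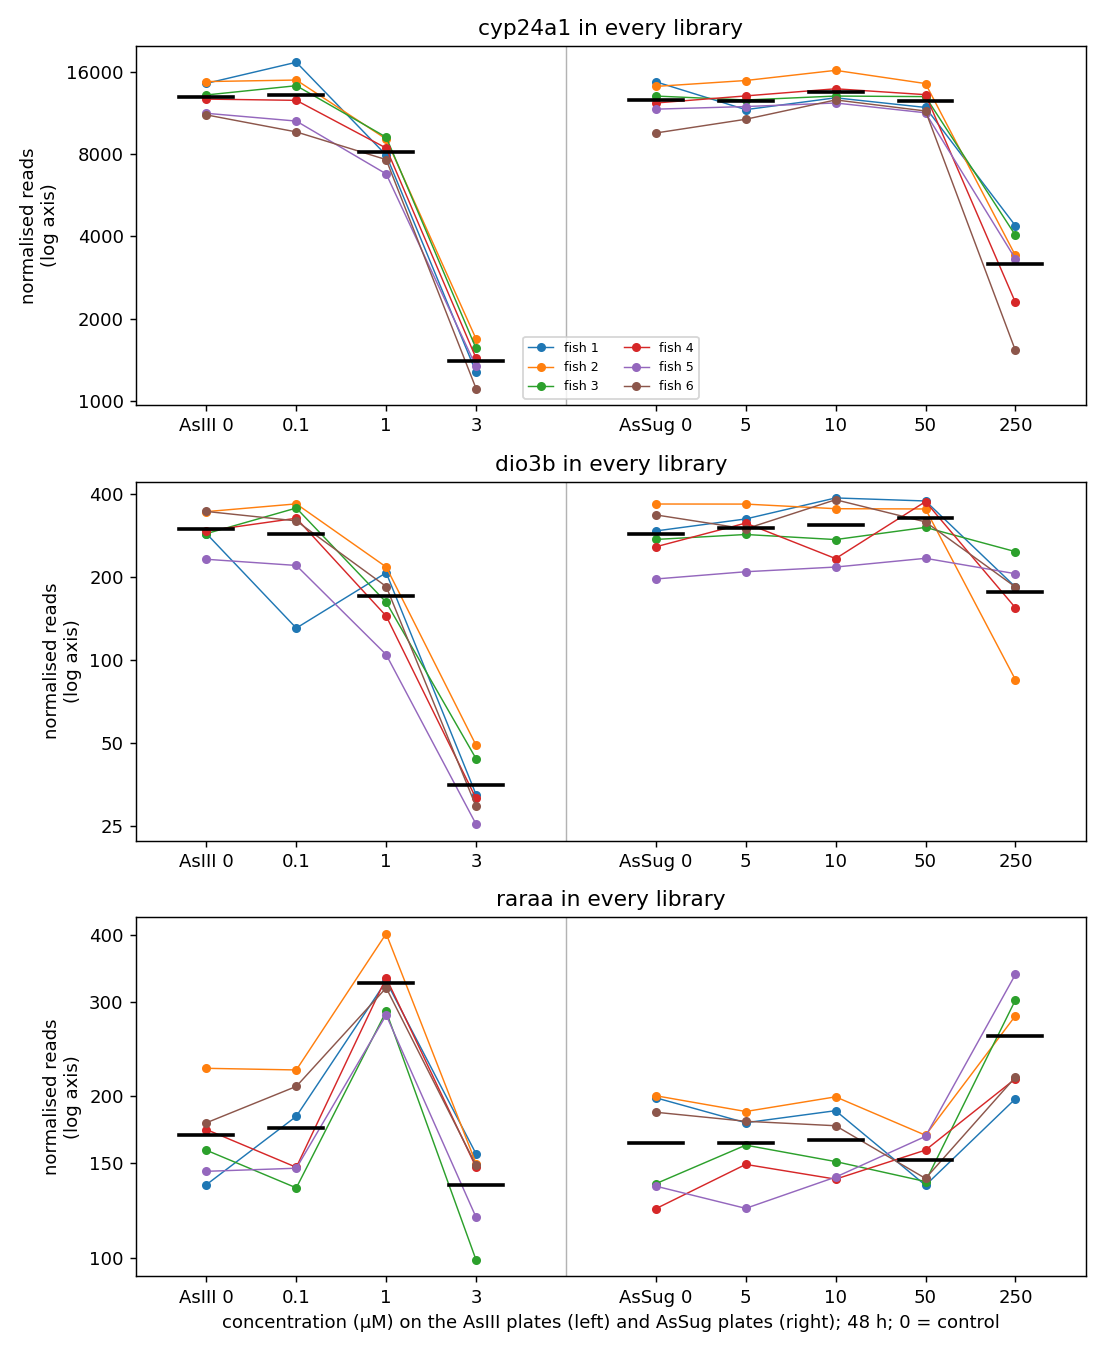
Normalised reads (log axis) of cyp24a1, dio3b and raraa in all 54 libraries, with AsIII plates to the left and AsSug plates to the right; points are fish, joined by a line within a compound, and black bars are group means. cyp24a1 and dio3b are lowest at 3 µM AsIII, raraa is highest at 1 µM AsIII, and all 3 overlap their control at 5, 10 and 50 µM AsSug.

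On the arsenosugar plates, cyp24a1 overlapped its control at 5, 10 and 50 µM. The controls had a lowest level of 9557, a median of 12675 and a highest of 14707 normalised reads. The 3 values were 10728, 12279.8 and 14869 at 5 µM, 12305, 12949.5 and 16197 at 10 µM, and 11329, 12417 and 14492 at 50 µM. All 3 groups overlapped the control, and the fitted changes were -0.01 ± 0.06 (95% interval -0.13 to 0.12, limma adjusted p = 0.997), 0.11 ± 0.06 (-0.01 to 0.23, adjusted p = 0.873) and 0.01 ± 0.06 (-0.12 to 0.13, adjusted p = 0.983), in that order.

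Exposed to 250 µM AsSug, fish 1 had a cyp24a1 level of 4378 normalised reads, with 3408 in fish 2, 4039 in fish 3, 2295 in fish 4, 3312 in fish 5 and 1531 in fish 6. Every one was below every control. The group mean stood at 25.1% of control, and the change was -2.06 ± 0.16 (95% interval -2.41 to -1.72), or -1.86 relative to the median of all genes, which was itself -0.20. In this comparison 1208 of 18756 genes had a lower change. The values rest on 362 to 2169 reads per library. How much of the spread between fish comes from depth was not tested. Between the control groups of the AsIII and AsSug plates the gene differed by 0.05 ± 0.07 (95% interval -0.09 to 0.18, adjusted p = 0.866).

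dio3b, the thyroid hormone inactivating deiodinase, was likewise lower at each step of arsenite above 0.1 µM, from a control level near 300 normalised reads. Its lowest, median and highest levels in the AsIII controls were 231, 289.8 and 345. At 0.1 µM they were 130.3, 322 and 367, where the lowest value is the library of fish 1 that stood apart. At 1 µM they were 104, 173 and 217, and at 3 µM 25.3, 32.0 and 49. Both higher groups lay wholly below the control, and the 3 µM group lay wholly below the 1 µM group.

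The group mean of dio3b stood at 57.0% of control at 1 µM and at 11.8% at 3 µM. Fish by fish, the level at 3 µM ran from 8.53% of control in fish 6 to 15.3% in fish 3, with the other 4 fish between. The fitted change was -0.84 ± 0.17 (95% interval -1.18 to -0.49) at 1 µM and -3.07 ± 0.17 (-3.42 to -2.72) at 3 µM, with a step of -2.23 ± 0.17 between them. At 3 µM, 19 of 18899 genes had a lower change. The 6 libraries at 3 µM held 26 to 52 reads of dio3b each, 221 in all. At 0.1 µM the change was -0.13 ± 0.17 (95% interval -0.48 to 0.22, limma adjusted p = 0.813). Without the library of fish 1 it turned to 0.10 ± 0.11 (adjusted p = 0.874), and the changes at 1 and 3 µM were -0.84 and -3.07 with a standard error of 0.10.

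Arsenosugar at 5, 10 and 50 µM gave dio3b levels that overlapped the control. The AsSug controls had 196, 283 and 367 normalised reads (lowest, median, highest), against 209, 306 and 367 at 5 µM, 217, 313 and 386 at 10 µM, and 233, 334 and 376 at 50 µM. The medians of all 3 exposed groups were above that of the control. The changes were 0.07 ± 0.08 (95% interval -0.10 to 0.24, limma adjusted p = 0.938), 0.09 ± 0.08 (-0.08 to 0.26, adjusted p = 0.936) and 0.19 ± 0.08 (0.02 to 0.36, adjusted p = 0.393). The last had an unadjusted p of 0.0289, was higher in 4 of 6 fish, and did not pass over all genes.

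dio3b was spread widely at 250 µM AsSug, at 184 normalised reads in fish 1, 84.7 in fish 2, 247 in fish 3, 154 in fish 4, 205 in fish 5 and 184 in fish 6. These overlap the control: 5 fish were lower than their own control and fish 5 stood at 104% of it. The change was -0.74 ± 0.23 (95% interval -1.23 to -0.25), or -0.54 relative to the median of all genes. It was -0.44 with library totals as the scale and -0.47 without fish 2. Each library held 9 to 121 reads of the gene, so depth limits this value. The 2 control groups differed by 0.07 ± 0.07 (95% interval -0.08 to 0.22, adjusted p = 0.804).

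raraa, the retinoic acid receptor, had another course: it was highest at 1 µM arsenite, and its mean at 3 µM was below that of the control. Its lowest, median and highest levels were 137, 166 and 225 normalised reads in the AsIII controls and 135, 165 and 224 at 0.1 µM. At 1 µM they were 283, 323 and 402, wholly above the control. At 3 µM they were 99.1, 148 and 156, wholly below the 1 µM group but overlapping the control.

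At 1 µM the group mean of raraa was 192% of control, and fish by fish it was 239.5% in fish 1, 178% in fish 2, 181% in fish 3, 192% in fish 4, 196% in fish 5 and 178% in fish 6. The fitted change was 0.94 ± 0.10 (95% interval 0.74 to 1.15), and 1640 of 18899 genes had a higher one. At 3 µM the change was -0.31 ± 0.10 (-0.51 to -0.10), with 5 fish lower than their control and fish 1 at 114% of it. The step from 1 to 3 µM was -1.25 ± 0.10 (-1.46 to -1.05), and all 6 fish were lower at 3 than at 1 µM. At 0.1 µM the change was 0.03 ± 0.10 (-0.17 to 0.24, limma adjusted p = 0.931), or 0.01 ± 0.10 (adjusted p = 0.992) without the library of fish 1. Leaving that library out kept 0.94 and -0.31 at the higher concentrations, with a standard error of 0.09.

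All levels of raraa at the lower arsenosugar concentrations lay within its control range. The AsSug controls had 123.4, 162 and 200.4 normalised reads (lowest, median, highest), and the exposed groups had 124, 170.3 and 187 at 5 µM, 140.1, 164 and 199 at 10 µM, and 136, 149.6 and 169 at 50 µM. The changes were 0.01 ± 0.09 (95% interval -0.18 to 0.20, limma adjusted p = 0.997), 0.03 ± 0.09 (-0.16 to 0.23, adjusted p = 0.978) and -0.08 ± 0.09 (-0.28 to 0.11, adjusted p = 0.824). At 250 µM the levels were 198 in fish 1, 282 in fish 2, 302 in fish 3, 216 in fish 4, 337 in fish 5 and 217 in fish 6. Fish 1 lay within the control range and the other 5 lay above it, with a change of 0.66 ± 0.19 (0.25 to 1.07), or 0.86 relative to the median of all genes. The libraries held 30 to 199 reads of the gene. The 2 control groups differed by 0.06 ± 0.10 (-0.15 to 0.27, adjusted p = 0.889).

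Ordered by group mean, cyp24a1 ran from 10 µM AsSug through 0.1 µM AsIII, both controls, 50 µM and 5 µM AsSug down to 1 µM AsIII, 250 µM AsSug and 3 µM AsIII. Neighbours in that order overlapped except at the steps from 5 µM AsSug to 1 µM AsIII and from there to 250 µM AsSug. For dio3b the order was 50, 10 and 5 µM AsSug, AsIII control, AsSug control, 0.1 µM AsIII, 250 µM AsSug, 1 µM AsIII and 3 µM AsIII, and the last step was the only one between neighbours without overlap. For raraa it was 1 µM AsIII, 250 µM AsSug, 0.1 µM AsIII, AsIII control, 10 µM AsSug, AsSug control, 5 µM AsSug, 50 µM AsSug and 3 µM AsIII, and each group overlapped the next. Levels set across the 2 sets of plates rest on the authors' shared scaling of all libraries.

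**Figure D2:**
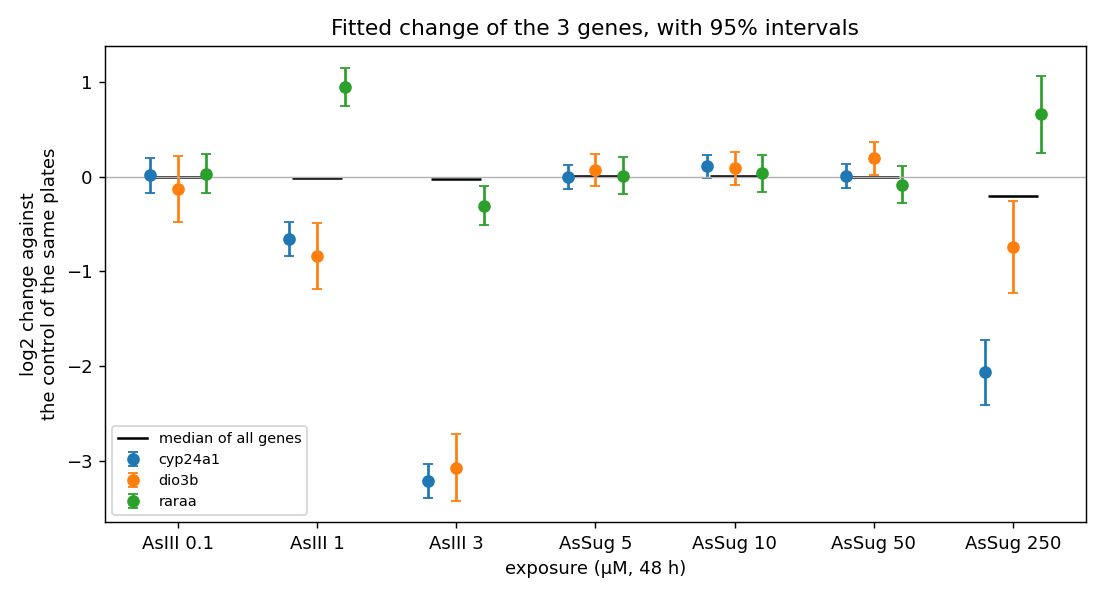
Fitted log2 change of cyp24a1, dio3b and raraa against the control of the same plates for each exposure, with 95% intervals; short black lines give the median change of all genes. The intervals of cyp24a1 and dio3b lie far below 0 at 3 µM AsIII, that of raraa lies above 0 at 1 µM AsIII, and the median of all genes is -0.20 at 250 µM AsSug.

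The whole transcriptome moved at these concentrations, which sets the scale for the 3 genes. All 3 lay outside their control range at 1 µM AsIII, as did 36.9% of the genes fitted, and 2 of 3 did so at 3 µM, against 52.7%. It was 1 of 3 at 250 µM AsSug, against 39.4%, and 3 of 3 between 1 and 3 µM AsIII, against 31.8%. These counts use the values by which the genes were chosen, and nothing is read from them. None of the 3 separated from control at 0.1 µM AsIII (background 0.101%), at 5, 10 or 50 µM AsSug (0.106%, 0.106% and 0.223%), or between the 2 control groups (0.305%). At 0.1 µM AsIII and at 5, 10 and 50 µM AsSug, limma called 0 of the 3 genes at an adjusted p below 0.05, and so did edgeR and DESeq2. Over all genes limma called 0.0106%, 0.106%, 0.0159% and 0.563% in these comparisons, and 0.0588% between the controls. Only dio3b at 50 µM had an unadjusted p below 0.05, as had 2028 of 18818 genes over the whole table in that comparison. Over all genes, 1416 (7.49%) were called lower at 1 µM AsIII and lower again at 3 µM, the course of the cyp24a1 and dio3b means. For raraa only part of the course was counted: 1028 genes (5.44%) were called higher at 1 µM and lower at 3 than at 1 µM. Their level at 3 µM against control was not part of that count.

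Few other genes of vitamin D signalling were in the table under a known symbol, and none of the 3 found was called lower at 3 µM AsIII. Lists of signalling genes were counted without cyp24a1, dio3b and raraa, against the share of all genes called. That share was 57% at 1 µM AsIII (29.8% higher, 27.3% lower), 71.1% at 3 µM (36% and 35.1%), 52.2% between 1 and 3 µM (27.8% and 24.4%) and 63.2% at 250 µM AsSug (26.7% and 36.5%). The vitamin D receptor gene vdr0 fell at 1 µM AsIII, from 79.0 ± 17.1 to 55.5 ± 10.5 normalised reads (SD, n = 6; log2 change -0.50 ± 0.13, limma adjusted p = 0.00298). Its values against control were 0.25 ± 0.13 at 3 µM (adjusted p = 0.0956) and 0.34 ± 0.28 at 250 µM AsSug (adjusted p = 0.296), and it was higher at 3 than at 1 µM by 0.75 ± 0.13 (adjusted p = 6.56e-05). kl, which encodes the FGF coreceptor klotho, was called higher at 3 µM AsIII (0.28 ± 0.11, adjusted p = 0.0324), a call lost with library totals, TMM factors or no fish term, and without any one of fish 1, 2, 3 and 5. It fell at 250 µM AsSug by 2.14 ± 0.18 (adjusted p = 7.7e-08), beside the -2.06 of cyp24a1. cyp27a1.1, a sterol hydroxylase of the kind that activates vitamin D, was at 20.4 ± 4.77 normalised reads in the AsIII controls and was not called at 1 µM (0.01 ± 0.18), 3 µM (-0.08 ± 0.18) or 250 µM (0.97 ± 0.41, adjusted p = 0.0507). With library totals it was called higher at 250 µM (1.26, adjusted p = 0.0184), and likewise with TMM factors, edgeR, DESeq2 and without any one of fish 2, 3 and 4, each on 2 to 64 reads per library. Of these 3 genes, 0 were higher and 1 lower at 1 µM, 1 and 0 at 3 µM, and 0 and 1 at 250 µM, and their medians were -0.04, 0.25 and 0.34 against -0.01, -0.02 and -0.20 over all genes.

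Thyroid hormone genes were mostly lower under arsenite, the activating enzyme as well as dio3b. Of 11 genes besides dio3b, 8 fell and 1 rose at 1 µM (median -0.42), and 6 fell and 1 rose at 3 µM (median -0.29). Over all genes, 27.3% were called lower and 29.8% higher at 1 µM, and 35.1% and 36% at 3 µM. dio1, the deiodinase that can both activate and clear the hormone, fell by 1.04 ± 0.21 at 1 µM (limma adjusted p = 0.000208) and by 0.92 ± 0.21 at 3 µM (adjusted p = 0.000461), from 47.4 ± 4.32 to 24.1 ± 9.06 and 24.5 ± 2.37 normalised reads. It thus stayed near the 1 µM level at 3 µM (0.12 ± 0.21 between them, adjusted p = 0.646), while dio3b stood a further -2.23 lower. As dio3b was chosen with its level at 3 µM known, nothing is read from that difference. Of the receptors, tr-alpha fell at both arsenite concentrations (-0.38 ± 0.12 and -0.42 ± 0.12), the first call being lost with library totals (-0.30, adjusted p = 0.0518). thrb fell at 1 µM (-0.73 ± 0.19, adjusted p = 0.0023) and was at -0.08 ± 0.19 at 3 µM (adjusted p = 0.715).

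Genes that bring thyroid hormone to the cell or recycle its iodine moved in both directions. The transporter slc16a10 fell by 0.86 ± 0.16 and 1.06 ± 0.16 at 1 and 3 µM, the carrier transthyretin (ttr) by 0.32 ± 0.09 and 0.29 ± 0.09, and the iodotyrosine deiodinase iyd by 0.52 ± 0.12 and 0.72 ± 0.12. The amino acid transporter slc7a5, which also carries thyroid hormone, was the 1 gene of the list that rose, by 1.50 ± 0.23 and 1.38 ± 0.23, from 12.8 ± 4.66 to 37.0 ± 9.75 and 33.8 ± 7.21 normalised reads. The largest limma adjusted p among these 8 calls was 0.00551. thrap3b, named for its binding to the receptor complex, fell by 0.80 ± 0.10 and 0.78 ± 0.10. The target gene thrsp fell at 1 µM (-0.42 ± 0.14), a call lost with no fish term. At 3 µM it and the target me1 stood at -0.24 ± 0.14 and -0.25 ± 0.17 without a call. Both were called lower at 3 µM with library totals and without the library of fish 1 at 0.1 µM (adjusted p = 0.0031 and 0.00869). ttr and rbp4 are also hepatocyte markers. Of the 11 hepatocyte markers, 9 were called lower at 1 µM and 8 at 3 µM, against 27.3% and 35.1% of all genes.

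The thyroid list went mostly the other way at 250 µM AsSug, where 26.7% of all genes were called higher and 36.5% lower. It had 5 genes higher and 1 lower, and a median of 0.46 against -0.20 over all genes. With library totals the counts were 8 and 1, and the list's median stood 0.67 above that of all genes under either scale. thrb rose from 157 ± 52.5 to 675 ± 298 normalised reads (2.05 ± 0.16, limma adjusted p = 4.98e-08). thrap3b (1.33 ± 0.15), me1 (0.78 ± 0.13) and ttr (0.62 ± 0.17) rose, slc16a10 fell by 1.56 ± 0.23, and dio1 was not called (adjusted p = 0.998, with a standard error of 0.32). thrsp was called higher (0.46 ± 0.18), a call lost with no fish term and when fish 1, 2, 3, 4 or 6 was left out. The hepatocyte marker ttr was thus higher where the summed hepatocyte markers were lower, and 3 of the 11 markers were called higher and 7 lower.

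Retinoid genes moved in both directions under arsenite. The 5 genes listed for the synthesis of retinal and retinoic acid (rdh1, dhrs9, bco1l, bco1 and aldh1a2) were called higher at 3 µM, and 3 of them at 1 µM. rdh1 and dhrs9 joined that list after the table had been seen. The carrier rbp4, stra6l and the receptor partner rxrgb were called lower at both concentrations. Of 12 genes besides raraa, 3 rose and 4 fell at 1 µM (median 0.04), and 6 rose and 3 fell at 3 µM (median 0.44). Of all genes, 29.8% were called higher and 27.3% lower at 1 µM, and 36% and 35.1% at 3 µM. rdh1 and dhrs9, of the family of retinol dehydrogenases, rose by 1.88 ± 0.12 and 1.41 ± 0.09 at 1 µM and by 1.65 ± 0.12 and 1.60 ± 0.09 at 3 µM. dhrs9 went from 325 ± 37.1 to 863 ± 72.1 and 982 ± 79.6 normalised reads. The carotenoid-cleaving genes bco1l and bco1 differed in course: bco1l rose at both concentrations (0.86 ± 0.15 and 2.06 ± 0.15), and bco1 was at -0.05 ± 0.14 at 1 µM (limma adjusted p = 0.778) and rose by 1.28 ± 0.14 at 3 µM. aldh1a2, the dehydrogenase that forms retinoic acid, rose at 3 µM (0.82 ± 0.23, adjusted p = 0.00336) from a level of 11.2 ± 3.51 normalised reads.

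The retinol carrier rbp4 fell by 1.07 ± 0.11 and 0.74 ± 0.11, from 7539 ± 1199 to 3617 ± 774 and 4521 ± 671 normalised reads, at 1 and 3 µM AsIII. rxrgb, which encodes a retinoid X receptor, the partner of raraa and of the vitamin D and thyroid hormone receptors, fell by 0.75 ± 0.13 at 1 µM, where raraa was 0.94 higher, and by 0.45 ± 0.13 at 3 µM. stra6l, named for its likeness to the retinol-binding protein receptor, fell by 0.46 ± 0.10 and 0.45 ± 0.10. The call of rdh14 at 3 µM (0.63 ± 0.27, adjusted p = 0.0429) and that of dhrs4 at 1 µM (-0.39 ± 0.16, adjusted p = 0.0401), both retinal reductases, were lost with library totals or no fish term, and without any one of fish 2, 3, 4, 5 and 6. Without the library of fish 1 at 0.1 µM, rdh14 was also called at 1 µM (0.41 ± 0.09) and dhrs4 at 3 µM (-0.24 ± 0.08). dgat1a, an acyltransferase, and rdh14a were not called at 1, 3 or 250 µM.

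At 250 µM AsSug, 26.7% of all genes were called higher and 36.5% lower. Of the 12 retinoid genes, 3 were higher and 5 lower, with a median of -0.43 against -0.20 over all genes. bco1l fell by 2.60 ± 0.21, rdh14 by 2.66 ± 0.41, rdh1 by 1.19 ± 0.38 and dhrs4 by 0.76 ± 0.18, while bco1 (1.51 ± 0.25), rxrgb (1.37 ± 0.17) and rbp4 (0.62 ± 0.17) rose. The libraries held 1 to 21 reads of rdh14 and of rdh1 and 3 to 24 of bco1l, so depth limits these 3 values. dhrs9 (-0.59 ± 0.21, adjusted p = 0.0216) lost its call with library totals, and on leaving out fish 4, 5 or 6, and rdh1 lost it on leaving out fish 5. Without fish 5, 3 genes were called lower. At this concentration raraa and rxrgb were both higher than in control, whereas at 1 µM AsIII raraa was higher and rxrgb lower.

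**Figure D3:**
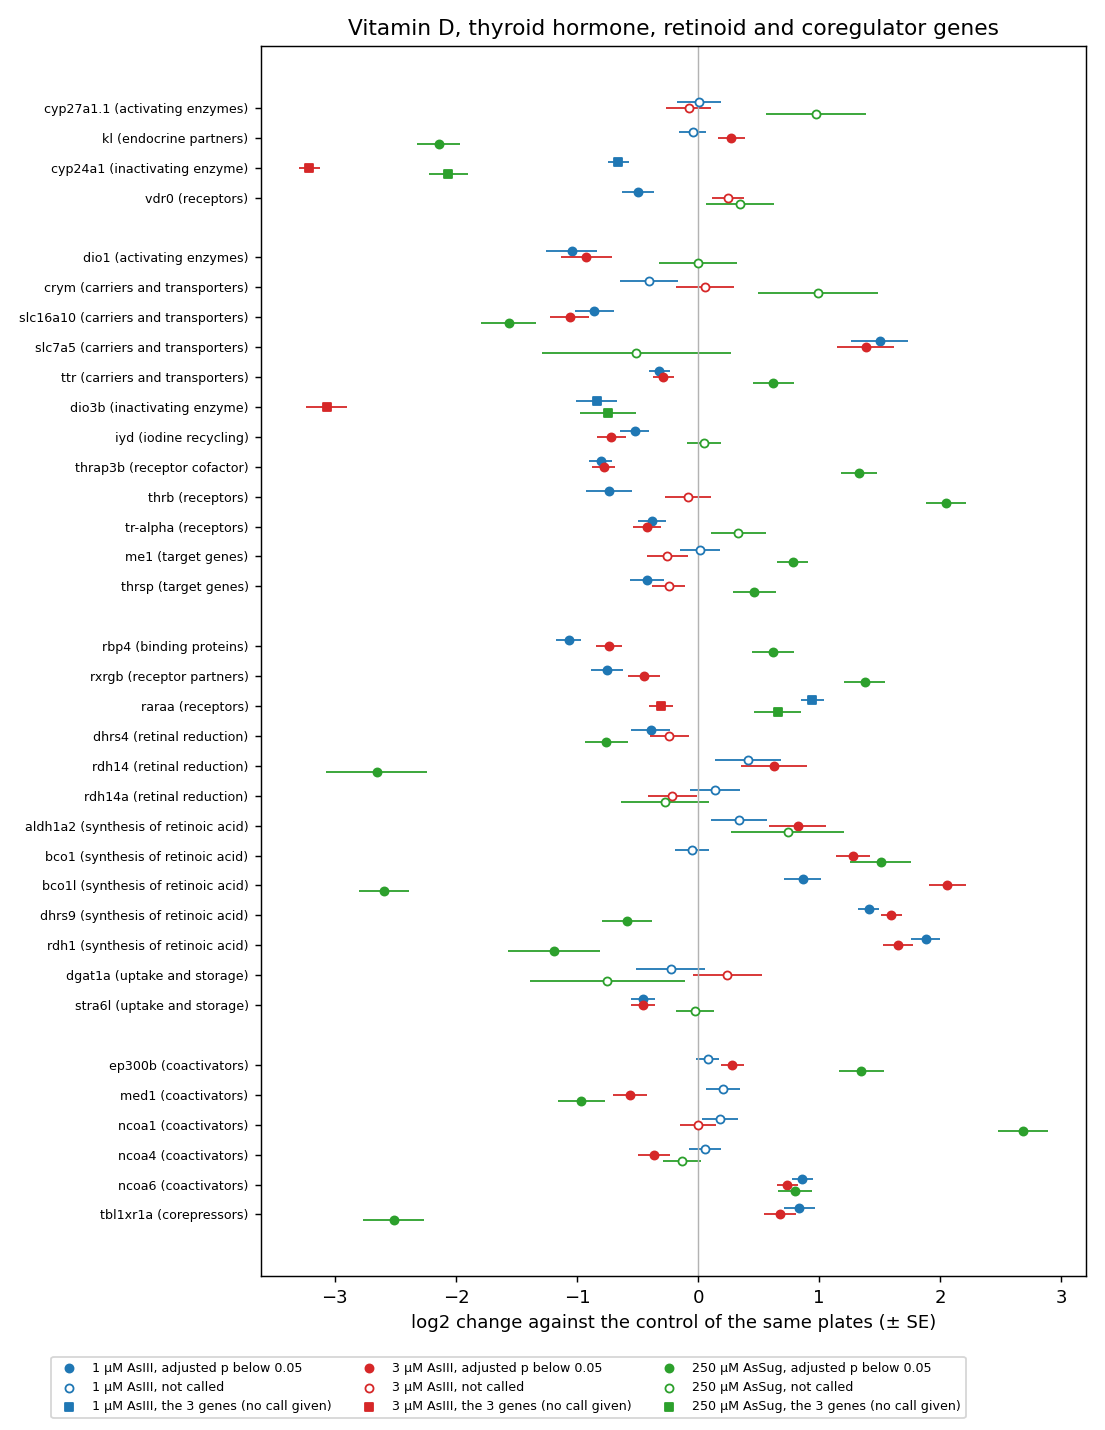
Log2 change (± standard error) of each vitamin D, thyroid hormone, retinoid and coregulator gene at 1 and 3 µM AsIII and 250 µM AsSug, with its role in brackets; filled circles passed an adjusted p of 0.05, open circles did not, and squares are cyp24a1, dio3b and raraa, for which no call is given. The squares of cyp24a1 and dio3b at 3 µM AsIII lie farther to the left than any circle drawn for that exposure. Both genes were chosen with these levels known, so nothing is read from that.

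Genes listed as receptor coregulators moved in both directions at 3 µM AsIII and 250 µM AsSug. Of 6, 2 rose and 0 fell at 1 µM AsIII (median 0.19), and 3 rose and 2 fell at 3 µM (median 0.14). The share of all genes called was 57% at 1 µM, 71.1% at 3 µM and 63.2% at 250 µM AsSug. The coactivator ncoa6 rose by 0.86 ± 0.09 and 0.74 ± 0.09 and the corepressor complex subunit tbl1xr1a by 0.84 ± 0.13 and 0.68 ± 0.13. The Mediator subunit med1 fell at 3 µM (-0.56 ± 0.14, limma adjusted p = 0.00116) and ncoa4 by 0.37 ± 0.13, a call lost when fish 2, 4 or 6 was left out. ep300b rose by 0.28 ± 0.09, lost with library totals and without fish 2. Without the library of fish 1 at 0.1 µM, med1 (0.21 ± 0.09) was called higher at 1 µM too, which made 3. Exposure to 250 µM AsSug gave 3 that rose and 2 that fell (median 0.34), with ncoa1 at 2.69 ± 0.21 and tbl1xr1a at -2.52 ± 0.26. The value of tbl1xr1a rests on 4 to 22 reads per library.

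The 12 other nuclear receptor genes found gave a wider view of raraa. At 1 µM AsIII 4 rose and 6 fell (median -0.36), and at 3 µM 4 rose and 4 fell (median 0.02, or -0.10 with library totals). The share of all genes called was 57% at 1 µM and 71.1% at 3 µM. ppardb (1.18 ± 0.18 and 1.71 ± 0.18) and nr1h3 (0.56 ± 0.10 and 0.88 ± 0.10), receptors of fatty acids and oxysterols, rose at both concentrations. nr2f2 fell by 1.54 ± 0.14 and 0.99 ± 0.14. Without the library of fish 1 at 0.1 µM, rorca (0.20 ± 0.07) was also called higher and nr2f6b (-0.30 ± 0.14) lower at 3 µM. nr2f5 was then called higher at 1 and at 3 µM (0.19 ± 0.08 at both). With all libraries, none of the 12 was called lower at 3 than at 1 µM by limma, and 6 were called higher, among them rorca (0.76 ± 0.11). Without the library of fish 1 at 0.1 µM, nr5a5 was called lower (-0.19 ± 0.08, limma adjusted p = 0.0405). raraa stood -1.25 lower at 3 than at 1 µM, but it was chosen with results of these libraries known, so nothing is read from this. Of all genes, 27.8% were called higher and 24.4% lower in that comparison. With library totals 3 of the 12 were called higher and 2 lower.

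Since type 3 deiodinase is a selenoenzyme, genes of 15 selenoproteins were set beside dio3b. They are dio1 and genes with a symbol that begins with sel. Selenoprotein genes under other symbols were not counted. dio1 is also counted in the thyroid list and fell at 1 and 3 µM AsIII. At 1 µM AsIII 9 fell and 3 rose (median -0.31), and at 3 µM 8 fell and 4 rose (median -0.22), or 8 and 1 with library totals. Of all genes, 57% were called at 1 µM, 71.1% at 3 µM and 63.2% at 250 µM AsSug. selenop, the plasma selenium carrier made in liver, fell from 34488 ± 3144 normalised reads to 11220.3 ± 2225 at 1 µM and 10900.2 ± 660.3 at 3 µM (-1.64 ± 0.15 and -1.66 ± 0.15). selenop2 fell by 0.86 ± 0.10 and 0.83 ± 0.10, and selenol rose by 1.28 ± 0.16 and 1.69 ± 0.16. Without the library of fish 1 at 0.1 µM, selenoi was called higher at 1 µM too (0.14 ± 0.06). The lowest of the 15 against control at 3 µM was selenop. dio3b was lower still, but it was chosen with that level known, so nothing is read from this. In the 250 µM AsSug group 7 fell and 2 rose (median -0.81), led by selenon (-3.39 ± 0.32) and selu (-2.96 ± 0.53).

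At 0.1 µM AsIII and at 5, 10 and 50 µM AsSug, limma called 0 of the 58 listed genes, as did edgeR and DESeq2. Over all genes limma called 0.0106%, 0.106%, 0.0159% and 0.563%. At an unadjusted p below 0.05 there were 7, 2, 2 and 5 of the 58. Over all genes there were 1473 of 18899 at 0.1 µM AsIII, and 1323, 1112 and 2028 of 18818 at 5, 10 and 50 µM AsSug. Between the 2 control groups there were 0 calls and 4 of the listed genes below that p, against 0.0588% called and 1825 of 18712 below it over all genes.

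The genes beside cyp24a1, dio3b and raraa on their chromosomes were found by the gene order of the assembly Ssal_v3.1. Among them only LOC106583670, beside cyp24a1, was lower at each arsenite step above 0.1 µM, as cyp24a1 was. No annotated gene overlaps cyp24a1, dio3b or raraa. On one side of cyp24a1, dok5 rose at 1 µM AsIII (0.40 ± 0.14, a call lost with no fish term and without fish 1 or 6) and fell by 1.27 ± 0.14 at 3 µM. On the other side, LOC106583670 fell at both (-0.78 ± 0.15 and -2.06 ± 0.15), with a step of -1.28 ± 0.15 between them. Its mean went from 67.1 normalised reads in the AsIII controls to a low 15.2 at 3 µM. Where cyp24a1 stood at -2.06, at 250 µM AsSug, these genes were at -0.10 ± 0.20 and 0.09 ± 0.27 and were not called. Beside dio3b, slc25a47a, of the mitochondrial carrier family, rose by 0.48 ± 0.11 and 1.80 ± 0.11 at 1 and 3 µM AsIII, and LOC106608134 rose by 0.32 ± 0.07 at 3 µM. At 3 µM both neighbours of dio3b thus rose where dio3b was lower, and 36% of all genes were called higher there. At 250 µM AsSug, where dio3b stood at -0.74, LOC106608134 was called lower (-0.53 ± 0.16), a call lost with library totals. slc25a47a was called higher in that group (0.65 ± 0.18).

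raraa lies near a pair of proliferation genes. mki67, its nearest neighbour on one side, fell by 1.77 ± 0.21 at 1 µM AsIII and was at -0.27 ± 0.21 at 3 µM (limma adjusted p = 0.256). top2a, the nearest measured gene on the other side, fell by 2.16 ± 0.16 and 0.96 ± 0.16. Among the arsenite groups both were lowest where raraa was highest, and both rose from 1 to 3 µM (1.49 ± 0.21 and 1.21 ± 0.16). Their means were low at 1 µM, at 13.5 and 12.1 normalised reads, against 46.2 and 55.9 in the AsIII controls.

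**Figure D4:**
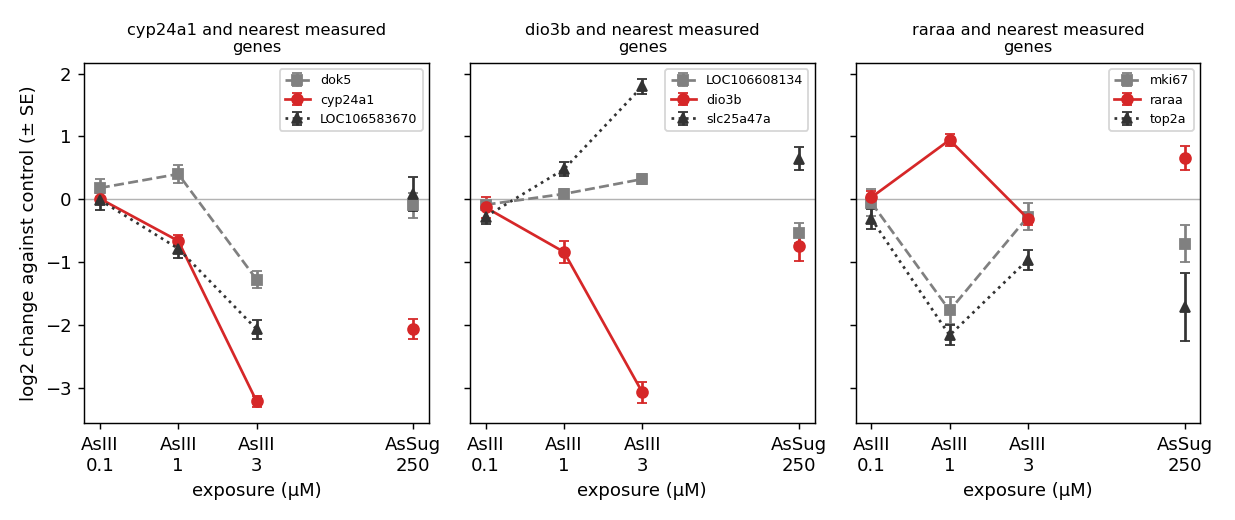
Log2 change against control (± standard error) of cyp24a1, dio3b and raraa (red) and of the nearest measured gene on each side (grey and black) at 0.1, 1 and 3 µM AsIII and 250 µM AsSug. Both neighbours of raraa are below 0 at 1 µM AsIII, where raraa is above it, and slc25a47a rises to 1.80 at 3 µM AsIII, where dio3b is at -3.07.

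Across the 48 libraries outside 250 µM AsSug, with the mean of each fish within a compound removed, cyp24a1 and dio3b had a Pearson r of 0.956 with each other, against 0.370 and 0.307 with raraa. Over all 54 libraries the 3 values were 0.891, -0.018 and 0.139. These libraries share the arsenite steps, so such values describe a common course over concentration and carry no p. The 5 named genes most like cyp24a1 were kcnk6 (r = 0.982), cldn2 (0.978), nav2b (0.975), mfsd5 (0.971) and tdo2a (0.970), which encode a potassium channel, a claudin, a neuron navigator, a transporter of the major facilitator family and tryptophan dioxygenase. At 3 µM AsIII their changes ran from -3.05 (nav2b) to -1.66 (tdo2a). In the 250 µM AsSug group tdo2a (-1.57 ± 0.14) and mfsd5 (-1.36 ± 0.21) fell as cyp24a1 was lower, while kcnk6 (0.42 ± 0.13) and nav2b (0.72 ± 0.16) rose. cldn2 was at 0.33 ± 0.13, a call lost when fish 2, 3 or 6 was left out. The most opposite were the ubiquitin gene ubb (-0.984), the clock gene per2 (-0.984), nf2l2 (-0.982), ezrin gene ezra (-0.981) and nocturnin gene nocta (-0.978), with changes of 2.60 to 4.28 at 3 µM.

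For dio3b the most alike were smu1a (0.963), txnip (0.962), mbtps1 (0.961), tcn2 (0.959) and marveld2a (0.958). txnip, the thioredoxin-interacting protein gene, fell at 1 and 3 µM AsIII (-1.1 ± 0.15 and -2.65 ± 0.15). The most opposite were arf1l (-0.974), phf20b (-0.973), ubb (-0.968), tef (-0.964) and rab5ab (-0.964). ubb, at 3.29 ± 0.10 at 3 µM, was thus among the most opposite genes for cyp24a1 and dio3b alike.

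Fewer genes exceeded an r of 0.9 with raraa: 4, against 420 with cyp24a1 and 331 with dio3b. Over all 54 libraries these counts were 0, 123 and 22, so they rest on leaving out 250 µM AsSug. An r also depends on the size of a change against its spread, and raraa changed less than cyp24a1 and dio3b. The counts therefore do not tell how common its course was. By calls, 1028 genes (5.44%) were higher at 1 µM than in control and lower at 3 than at 1 µM, with no condition on 3 µM against control. The most alike by name were tnr5 (0.935), traf3 (0.896), mafa (0.880), spg20 (0.865) and sh2b3 (0.851). traf3, an adaptor of the tumour necrosis factor receptor family, rose by 1.75 ± 0.15 at 1 µM and was at -0.17 ± 0.15 at 3 µM. tnr5, which encodes a receptor of that family, rose by 1.54 ± 0.12 and fell below control at 3 µM (-0.80 ± 0.12). Where raraa was 0.66 higher, at 250 µM AsSug, traf3 (-3.05 ± 0.58) and tnr5 (-2.21 ± 0.22) fell. The most opposite were prkag2a (-0.895), oaz2a (-0.883), acy3 (-0.840), cebpa (-0.837) and foxred2 (-0.818). cebpa, a liver transcription factor gene, fell by 0.89 ± 0.09 at 1 µM and was called higher at 3 µM (0.31 ± 0.09), a call lost with library totals and without fish 2.

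**Figure D5:**
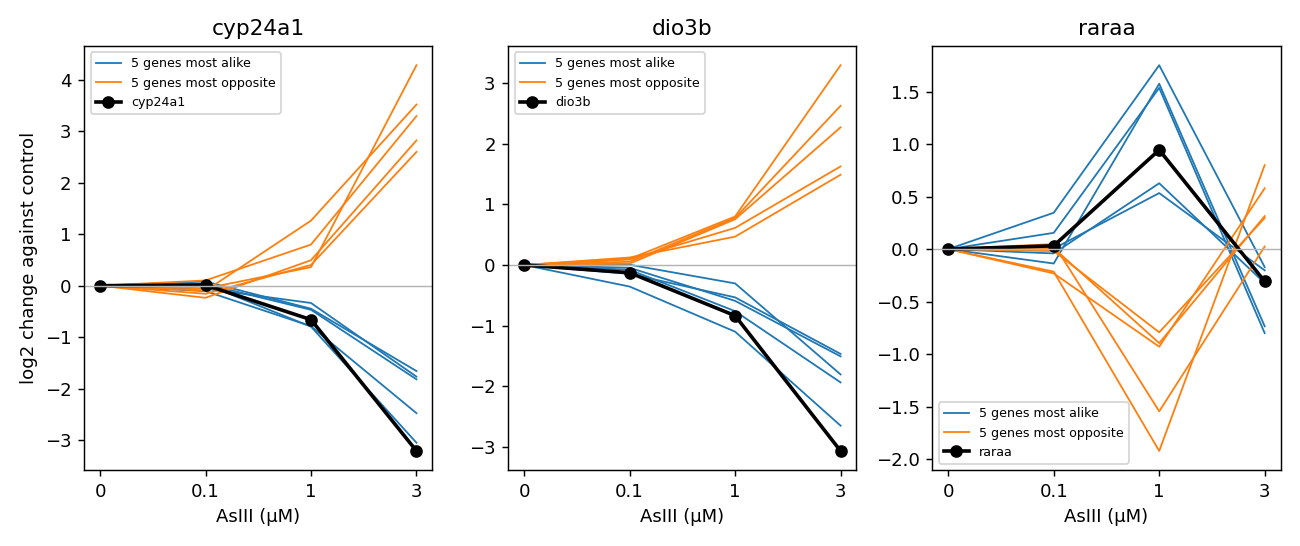
Log2 change against control at 0, 0.1, 1 and 3 µM AsIII of cyp24a1, dio3b and raraa (black) with the 5 most alike (blue) and 5 most opposite (orange) named genes of each; vertical scales differ between panels. For cyp24a1 and dio3b the lines part most at 3 µM, and for raraa at 1 µM.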

How the data were processed

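RNA of 54 hepatocyte libraries (9 groups of 6 fish) was analysed from 1 table of 18901 genes. Its values are a read signal that the authors made before deposit by scaling reads per gene by a size factor of each library, tested here on the values: dividing out 1 factor per column returned whole reads (100% of values, tolerance 0.1 reads, largest deviation 0.0931). The tools were HISAT2, featureCounts, Subread and DESeq2 1.40.2, per the submitters' processing notes. The sources used here give no genome build, annotation, strand setting or rule for reads that match several genes. The salmon genome is duplicated, and copies of the 3 genes that carry only a locus name were not analysed here.

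From there, log2(value + 1) was fitted with limma 3.58.1 (mean trend) in R 4.3.3, with fish as a term, for genes that reached 10 normalised reads in 6 or more libraries of the fit. One fit held the 24 AsIII libraries and another the 24 AsSug libraries up to 50 µM; 250 µM AsSug was fitted with its control alone, and the 2 controls with each other. Tests were two-sided, with Benjamini-Hochberg adjustment over all genes and a threshold of 0.05. The added 1 shrinks changes of genes with few reads. The replicate number is the fish: same-fish libraries correlated with a median r across genes of 0.233 (AsIII), 0.367 (AsSug up to 50 µM) and 0.0982 (250 µM), against -0.0435, -0.0750 and -0.0331 for other fish. Alternatives were library totals, TMM factors, edgeR 4.0.16 and DESeq2 1.42.0 on the recovered reads, other pseudocounts, filters and samples, no fish term, and each fish left out. The limma and edgeR fits were run on simulated counts with known changes, for 0.1 µM AsIII and 250 µM AsSug. The other steps were not tested in that way. Without molecular identifiers, reads are not independent molecules.

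Members and lists were chosen with earlier results of these data known. Names came from a reference table of Ssal_v3.1 (18900 of 18901 identifiers found, 6224 with a symbol), which gave 3 of 31 vitamin D, 11 of 24 thyroid hormone, 11 of 61 retinoid and 6 of 19 coregulator symbols, the 3 genes included; 1 further coregulator gene is not reported here. vdr0, thrap3b, rdh1, dhrs9, the other nuclear receptors and the selenoproteins were added after the table had been seen. Named were the 3 genes, receptors and enzymes of each list, further list members called at 3 µM AsIII, and the 5 named genes most and least correlated with each gene over 48 libraries. The neighbours, and list members whose calls changed with the processing, were named after their values were seen. No sequences were used, and coordinates served only to order genes and to find overlaps within Ssal_v3.1.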

Additional observations from a re-analysis of the deposited data

How the results depend on the processing

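The directions of cyp24a1 and dio3b at 1, 3 and 250 µM, and of raraa at 1 µM AsIII and 250 µM AsSug, were the same under every alternative tried. cyp24a1 at 3 µM AsIII ran from -3.33 to -3.15, dio3b from -3.18 to -2.93 and raraa at 1 µM from 0.88 to 1.02. Library totals shifted the median of all genes from 0.00 to -0.11 at 0.1 µM AsIII, from -0.02 to -0.14 at 3 µM, from 0.03 to -0.16 between 1 and 3 µM and from -0.20 to 0.09 at 250 µM AsSug. With them dio3b at 250 µM was -0.44, and relative to the median it was -0.54 under either scale. Over the fish left out it ran from -0.90 to -0.47, the last without fish 2. With no replicate block (fish left out of the model), raraa at 3 µM was -0.31 as with it, with a standard error of 0.14 in place of 0.10, and over the fish left out in turn it ran from -0.41 to -0.23. The block changed no call of the 3 genes at 0.1 µM AsIII, at 5, 10 or 50 µM AsSug or between the controls.

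Signs turned only among changes that did not pass. With library totals cyp24a1 and raraa were -0.094 and -0.073 at 0.1 µM AsIII, and raraa was -0.0073 at 5 µM AsSug. Without the library of fish 1 at 0.1 µM, an alternative added after seeing the data, cyp24a1 and dio3b were -0.071 and 0.095. Over the fish left out in turn, cyp24a1 ran from -0.037 to 0.056 at 0.1 µM, from -0.039 to 0.062 at 5 µM and from -0.045 to 0.070 at 50 µM, dio3b from -0.21 to 0.073 at 0.1 µM, and raraa from -0.046 to 0.084 at 0.1 µM, from -0.041 to 0.044 at 5 µM, from -0.17 to 0.0058 at 50 µM and from -0.027 to 0.18 between the controls.

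The number of genes called over the whole table was 2 at 0.1 µM AsIII by limma (1473 at an unadjusted p below 0.05). It was 0 with library totals, TMM factors, edgeR, a pseudocount of 5 or only the groups compared, 13 with DESeq2, 1 with no replicate block, 4 without the library of fish 1 and 0 to 8 with a fish left out. At 5 µM AsSug it was 20, against 34 (DESeq2), 0 (no replicate block) and 7 to 38. At 10 µM it was 3, against 11 (library totals), 14 (DESeq2), 0 (no replicate block) and 2 to 15. At 50 µM it was 106, against 34 (only the groups compared), 0 (no replicate block) and 31 to 178. Between the controls it was 11, against 0 (no replicate block) and 3 to 17. Of the 5 genes most alike and most opposite, 2 and 2 (cyp24a1), 2 and 0 (dio3b) and 0 and 1 (raraa) recurred over all 54 libraries. Low depth limits dio3b and raraa at 250 µM AsSug, and the listed genes with few reads there.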
